A study of Homo sapiens with 6 samples.

Results

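The 10 genes NFKB1, NFKB2, RELB, NFKBIA, TNFAIP3, IL6, IL1A, IL1B, CXCL1 and CXCL2, which encode NF-kB subunits, inhibitors of the pathway and inflammatory cytokines, were examined in PC-3 cells, a line derived from a human prostate cancer bone metastasis. They were taken from a list of names, without a threshold on their values, and all 10 were among the 19491 genes listed in the tables.

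Total RNA of PC-3 cells was sequenced after 48 h without an inhibitor (control), with GPNA at 1 mM or with BenSer at 10 mM. GPNA (L-gamma-glutamyl-p-nitroanilide) and BenSer (benzylserine) are amino acid analogues that compete for ASCT2, the glutamine transporter encoded by SLC1A5, and the design asked how the transcriptome of these cells differed when this transporter was inhibited. The paper states that BenSer also inhibits the amino acid transporter LAT1 in oocytes, and proposes that some of its effects do not run through ASCT2. All 3 groups shared the same cell line and the same serum-containing medium, the study's methods give water as the vehicle of both inhibitors, and the concentrations of the inhibitors differed. Each group had 2 libraries, with 23077986 to 32178154 reads in the total of a library, of which 51.6% to 52.7% were on the listed genes.

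Within a group both libraries varied about as repeated sampling of reads from 1 library would, the chi-square over genes divided by its degrees of freedom being 1.06 in control, 1.05 in GPNA and 1.05 in BenSer. Between groups, with both libraries merged, this quotient was 8.89 for GPNA against control and 35.3 for BenSer against control. The libraries of a group were therefore counted as 1 sample, no p-value is given for either treatment, and the intervals below cover counting error only. Of the markers fixed for the line, the epithelial genes KRT19 (669 in control, in reads per 1000000 reads of the library, CPM), KRT8 (289 CPM) and EPCAM (97.8 CPM) were well covered. Leukocyte markers, whose cells are a common source of these cytokines, summed to 0.907 CPM in control, 0.839 in GPNA and 0.905 in BenSer, from CSF1R alone of 6 listed, and the tables used have no row for PTPRC, CD3E, CD68, CD14 or LYZ. Fibroblast markers (3 of 5 with a row) summed to 7.19, 4.82 and 6.35 CPM in the same order, and of 4 endothelial markers KDR alone had a row, at 3.11, 2.17 and 4.05 CPM. In bulk RNA, fewer cells expressing a gene and less RNA per cell cannot be told apart.

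NF-kB transcription factors are dimers of subunits that include the products of NFKB1, NFKB2 and RELB, and they are held in the cytoplasm by IkB proteins until a kinase complex marks the IkB for degradation. The freed dimers enter the nucleus and bind kB sites in the promoters of cytokine and chemokine genes, and also of NFKBIA and TNFAIP3, whose products switch the pathway off again. Prostate cancer lines that no longer depend on androgen, PC-3 among them, are known for constitutive NF-kB activity and for secreting interleukins and CXC chemokines.

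Promoter windows were taken from RefSeq (GRCh38.p14) as the 250 bases before an annotated start, and were placed by exact match in GRCh37, the build of the deposited tables. RefSeq windows were available for 9 of the 10 genes (13 windows), and RELB was not matched. The kB consensus decamer, searched on both strands with overlapping matches merged, was present in 8 of the 13 windows, belonging to 7 genes (NFKB1, NFKB2, NFKBIA, TNFAIP3, IL6, CXCL1 and CXCL2), against 9.96% of all 35116 RefSeq windows. The windows of IL1A and IL1B held no such letters. Upstream stretches of 4 genes are shown because they carry 1 identical decamer, GGGAATTTCC on one strand or the other, beside differing expression. This decamer was picked after the sequences had been seen, and it was present in 0.142% of all windows. Capitals mark the kB match, each stretch reads 5′ to 3′ along its gene's strand and ends at the base before the annotated gene (GRCh37), and a match of letters is not evidence of binding.
CXCL1 (chr4:74734860-74735109, plus strand): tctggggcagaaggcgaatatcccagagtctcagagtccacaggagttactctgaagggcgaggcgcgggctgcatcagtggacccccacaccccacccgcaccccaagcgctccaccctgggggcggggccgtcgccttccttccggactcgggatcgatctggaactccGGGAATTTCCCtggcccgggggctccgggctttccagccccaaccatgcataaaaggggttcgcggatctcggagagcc
CXCL2 (chr4:74964914-74965162, minus strand): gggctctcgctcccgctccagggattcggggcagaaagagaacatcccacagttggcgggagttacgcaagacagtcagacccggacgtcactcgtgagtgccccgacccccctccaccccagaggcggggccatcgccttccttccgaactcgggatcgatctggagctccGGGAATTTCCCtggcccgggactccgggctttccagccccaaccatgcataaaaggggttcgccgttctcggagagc
NFKB1 (chr4:103422266-103422486, plus strand): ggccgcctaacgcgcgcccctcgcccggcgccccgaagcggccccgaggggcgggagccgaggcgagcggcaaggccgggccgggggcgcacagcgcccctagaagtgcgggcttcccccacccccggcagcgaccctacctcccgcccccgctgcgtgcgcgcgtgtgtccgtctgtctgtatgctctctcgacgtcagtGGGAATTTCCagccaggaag
NFKBIA (chr14:35873956-35874205, minus strand): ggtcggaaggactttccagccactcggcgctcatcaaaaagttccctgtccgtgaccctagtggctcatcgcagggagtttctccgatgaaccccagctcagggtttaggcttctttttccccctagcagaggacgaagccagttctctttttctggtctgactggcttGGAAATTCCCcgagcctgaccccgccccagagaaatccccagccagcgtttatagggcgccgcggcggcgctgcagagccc
The capitals began 79 bases before the RefSeq start of CXCL1, 78 before that of CXCL2, 49 before that of NFKB1 and 81 before that of NFKBIA. The CXCL1 and CXCL2 stretches resemble each other around the match. In NFKBIA the decamer lies on the opposite strand.

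With BenSer, NFKBIA, IL1B and RELB were higher than in control and CXCL1, CXCL2 and TNFAIP3 lower, and with GPNA TNFAIP3, IL6, NFKB1, NFKB2, CXCL1 and IL1B were lower, by ratios of 0.796 to 0.917. With GPNA, 0 of 10 genes were at least 1.5-fold different from control on the log2(CPM + 1) scale, where 0.404% of the 18828 genes tested were. With BenSer, 1 of 10 was, namely CXCL1, which was lower, where 1.58% of the 18976 genes tested were lower and 3.54% different in either direction. All 10 genes passed the filter of a mean of 5 reads in either group in both comparisons. The median difference over the 10 genes was -0.17 in log2(CPM + 1) with GPNA and -0.06 with BenSer, beside -0.03 over all genes tested in each comparison. The genes spread from -0.31 to 0.10 with GPNA and from -0.62 to 0.43 with BenSer. Both comparisons used the same control libraries.

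**Figure D1:**
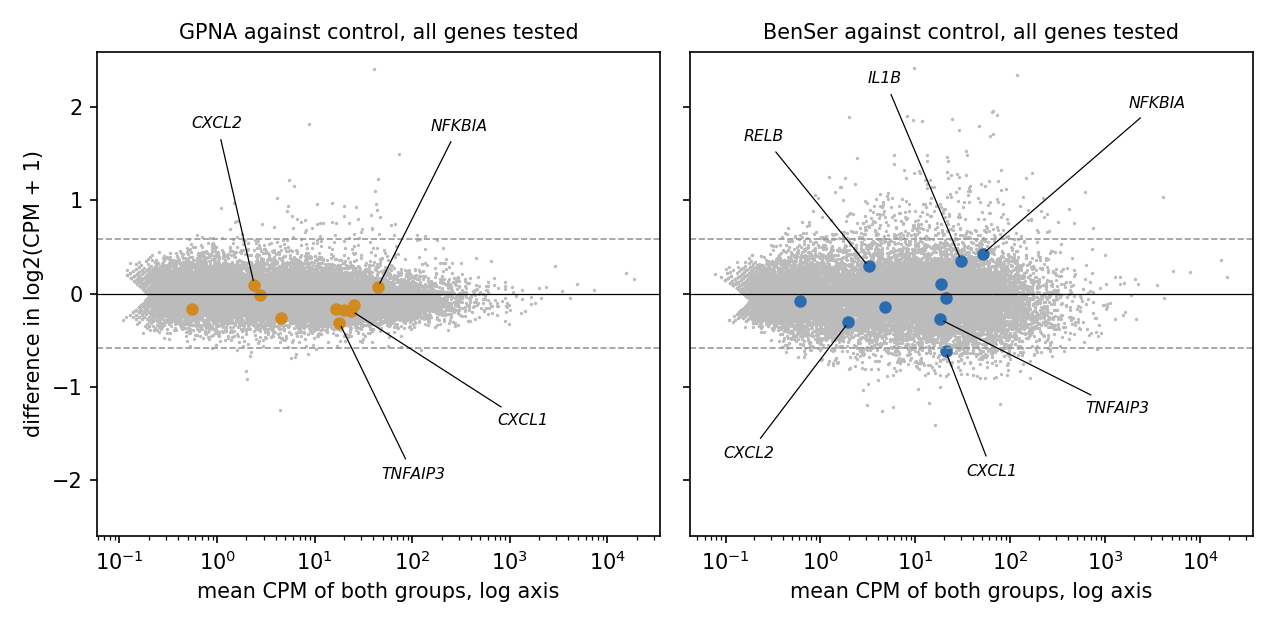
Difference in log2(CPM + 1) against control (y axis) plotted against the mean CPM of both groups (x axis, log scale) for each gene tested, with GPNA at left and BenSer at right. Grey points are all genes, coloured points the 10 NF-kB and cytokine genes with selected names, and dashed lines 1.5-fold. CXCL1 with BenSer is the single coloured point beyond a dashed line.

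Smaller differences were read from the ratio of CPM of the merged libraries with an exact 95% interval for counting error. With GPNA the interval lay below 1 for 6 of 10 genes (NFKB1, NFKB2, TNFAIP3, IL6, IL1B and CXCL1) and above 1 for 0, where 20.1% of all genes tested had an interval below 1 and 9.78% above (29.9% in all). With BenSer it lay above 1 for 3 genes (RELB, NFKBIA and IL1B) and below 1 for 3 (TNFAIP3, CXCL1 and CXCL2), where 18.2% and 25.8% of all genes tested did so (44% in all). The shares over all genes are not matched for reads, and a gene with more reads has a narrower interval. They are therefore not a like background for the 10 genes. The GPNA split depended on scaling. With TMM factors or DESeq2 size factors 4 intervals lay below 1 and 1 above, and with scaling to the listed genes 5 and 1, because NFKB2 and IL1B or IL1B alone came to include 1 and NFKBIA came to exclude it. With BenSer both TMM and DESeq2 factors gave 4 above and 3 below, NFKB2 being added.

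**Figure D2:**
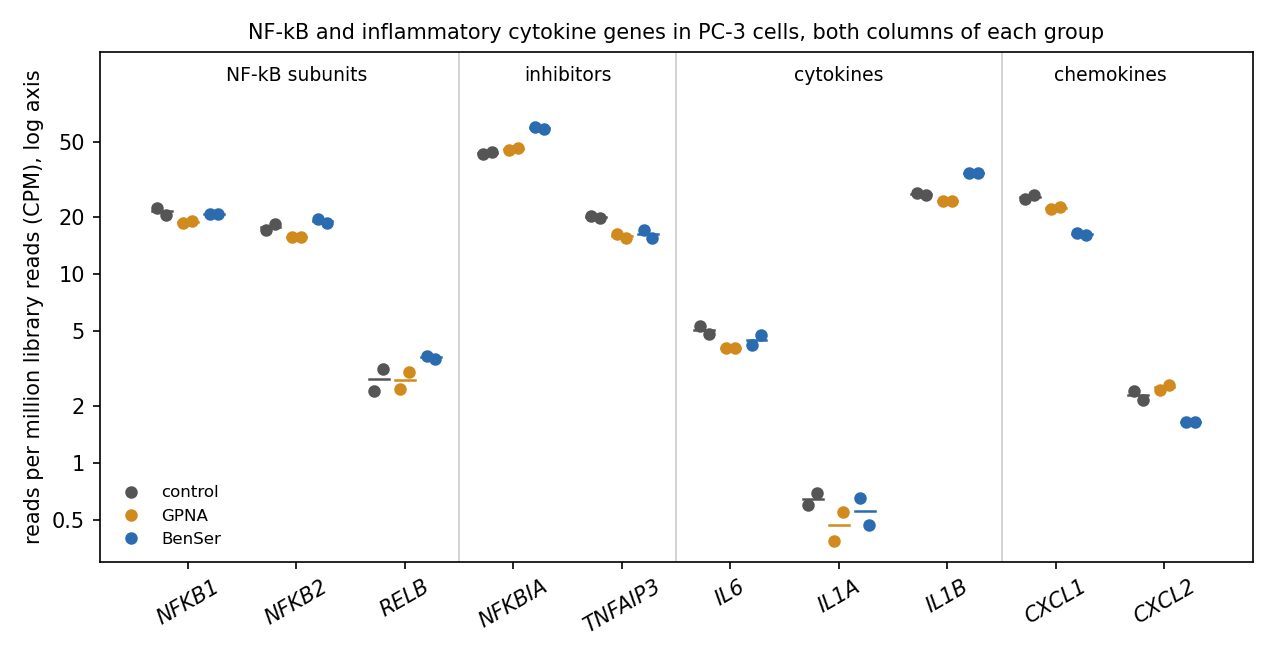
CPM (y axis, log scale) of the 10 genes, ordered by role, in both libraries of control (grey), GPNA (orange) and BenSer (blue). Points are libraries and short bars the merged value. The BenSer points lie above the control points for NFKBIA and IL1B and below them for CXCL1, CXCL2 and TNFAIP3.

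The NF-kB subunit genes differed from control by less than 1.5-fold with both inhibitors (gene positions are in GRCh37). NFKB1 (chr4:103422487-103538459), whose product is processed to a DNA-binding subunit that lacks an activation domain, was measured at 22.3 and 20.6 CPM in the control libraries, 18.6 and 19.1 in GPNA and 20.9 and 20.7 in BenSer. Both GPNA libraries lay below both control libraries, whereas the BenSer libraries lay between the control libraries. Relative to control NFKB1 was at a ratio of 0.881 (95% interval 0.805 to 0.963) in GPNA and of 0.969 (0.892 to 1.05) in BenSer, and the latter came to 1.00 with TMM or DESeq2 factors. NFKB2 (chr10:104153867-104162281), which encodes the precursor processed in the non-canonical arm, had 17.1 and 18.4 CPM in control, 15.7 and 15.7 in GPNA and 19.6 and 18.7 in BenSer. GPNA was thus below and BenSer above both control libraries. The NFKB2 ratio was 0.885 (0.802 to 0.976) with GPNA and 1.08 (0.986 to 1.18) with BenSer. The upper bound for GPNA came to 1.00 with TMM or DESeq2 factors, where the interval included 1, and with the same factors the BenSer interval excluded it (1.02 to 1.22).

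RELB (chr19:45504719-45541450) encodes the subunit that pairs with the processed NFKB2 product and is itself a target of NF-kB. It was found at 2.41 and 3.16 CPM in control, 2.48 and 3.03 in GPNA and 3.70 and 3.57 in BenSer. The GPNA libraries lay within the range of the control libraries, and both BenSer libraries lay above it. With BenSer the ratio was 1.30 (1.05 to 1.63), from 129 reads in control and 233 in BenSer. With GPNA it was 0.988 (0.772 to 1.26), a point estimate that crossed to above 1 under each other scaling tried, so no direction is read from it.

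The genes of the 2 inhibitors went opposite ways with BenSer. NFKBIA (chr14:35870285-35873955), which encodes IkB-alpha, the inhibitor that retains the dimers in the cytoplasm, had 43.0 and 44.1 CPM in control, 45.0 and 46.6 in GPNA and 59.8 and 58.1 in BenSer. BenSer stood clear of the 4 other libraries. The ratio was 1.35 with BenSer (1.28 to 1.43), the highest among the 10 genes, and 1.05 with GPNA (0.991 to 1.12). The GPNA interval excluded 1 under each of the 3 other scalings, at 1.07 to 1.08. TNFAIP3 (chr6:138188351-138204451), which encodes a ubiquitin-editing enzyme that ends signalling from TNF and interleukin-1 receptors, had 20.2 and 19.7 CPM in control, 16.3 and 15.4 in GPNA and 17.1 and 15.6 in BenSer. All 4 treated libraries were below both control libraries. The TNFAIP3 ratio was 0.796 (0.723 to 0.876) with GPNA and 0.818 (0.748 to 0.894) with BenSer. Both inhibitor genes have kB matches before their starts.

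**Figure D3:**
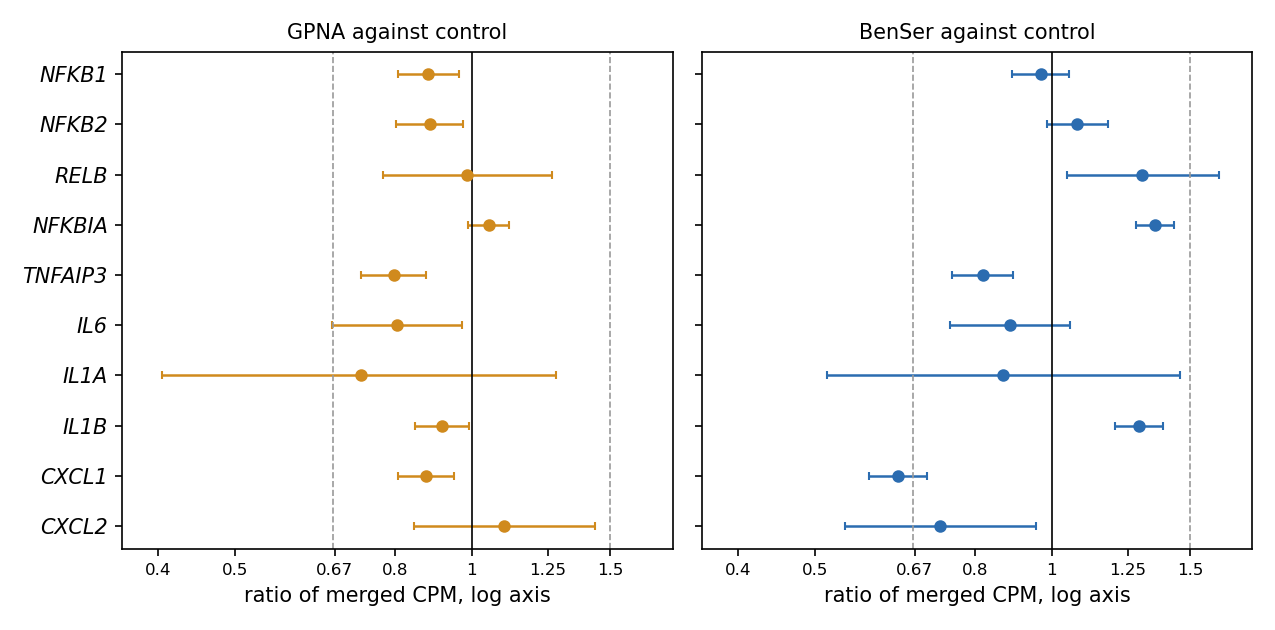
Ratio of merged CPM to control (x axis, log scale) for each of the 10 genes, with GPNA at left and BenSer at right. Points are ratios, horizontal bars exact 95% counting intervals, and dashed lines 1.5-fold in either direction. With BenSer, RELB, NFKBIA and IL1B lie to the right of 1 and TNFAIP3, CXCL1 and CXCL2 to the left.

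Among the cytokine genes, IL1B was higher with BenSer, and IL1B and IL6 were lower with GPNA. IL1B (chr2:113587328-113594393) encodes interleukin-1 beta, which is made as an inactive precursor and itself activates NF-kB in cells that carry its receptor. It was measured at 26.6 and 26.3 CPM in control, 24.3 and 24.2 in GPNA and 34.2 and 34.1 in BenSer. The groups did not overlap, with BenSer highest and GPNA lowest. The IL1B ratio was 1.29 (1.2 to 1.38) with BenSer and 0.917 (0.847 to 0.994) with GPNA, and the GPNA interval included 1 with each of the 3 other scalings. IL6 (chr7:22765503-22771621), which encodes a cytokine that signals through STAT3, had 5.34 and 4.81 CPM in control, 4.07 and 4.09 in GPNA and 4.23 and 4.76 in BenSer. All treated libraries were below the control libraries, but 1 BenSer library by a small margin. Its ratio was 0.804 (0.664 to 0.972) with GPNA and 0.885 (0.742 to 1.06) with BenSer. The upper bound for GPNA came to 0.9995 with TMM factors and 0.998 with DESeq2 factors, so the interval barely excluded 1 there. It rests on 235 reads in control and 209 in GPNA. IL1A (chr2:113531502-113542070), which encodes interleukin-1 alpha, an alarmin active already as a precursor, was barely covered, with 0.603 and 0.693 CPM in control, 0.388 and 0.550 in GPNA and 0.653 and 0.470 in BenSer. These values rest on 30, 24 and 36 reads, and the ratios of 0.723 (0.404 to 1.28) and 0.867 (0.519 to 1.46) had intervals that ran from beyond 1.5-fold lower to above 1, so a difference of that size was not detectable at this depth.

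The chemokine genes were lower with BenSer. CXCL1 (chr4:74735110-74737025), which encodes a ligand of CXCR2 that attracts neutrophils, had 24.8 and 26.0 CPM in control, 22.0 and 22.6 in GPNA and 16.4 and 16.1 in BenSer. The 3 groups did not overlap and BenSer was lowest. The ratio was 0.638 with BenSer (0.587 to 0.694) and 0.875 with GPNA (0.806 to 0.95). On the log2(CPM + 1) scale the BenSer difference was -0.62, close to the 1.5-fold limit of 0.585. It lay inside that limit with TMM factors (-0.57), with DESeq2 size factors (-0.57) and without control replicate 2 (-0.584), when 0 of 10 genes remained past 1.5-fold. CXCL2 (chr4:74962757-74964913), a paralogue with the same receptor, had 2.41 and 2.17 CPM in control, 2.44 and 2.59 in GPNA and 1.65 and 1.66 in BenSer. BenSer was below all other libraries, and GPNA slightly above control. The CXCL2 ratio was 0.722 (0.546 to 0.954) with BenSer and 1.10 (0.844 to 1.44) with GPNA, from 106 reads each in control and BenSer and 129 in GPNA. Of the 50-base windows of the CXCL1 transcript 5.33% recur in CXCL2 and 0.533% in CXCL3. Of those of the CXCL2 transcript 5.63% recur in CXCL1 and 5.07% in CXCL3. None of 100 bases recurs, so reads shared between these genes are uncertain to that extent.

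CXCL1 and CXCL2 lie in a cluster of CXC chemokine genes on chromosome 4, and their neighbours did not share 1 pattern. CXCL6, 32.8 kb before CXCL1, had a ratio of 0.601 (0.517 to 0.699) with BenSer and 0.662 (0.566 to 0.773) with GPNA. CXCL5 was at 0.677 (0.562 to 0.816) and 0.669 (0.548 to 0.816). These genes encode further ligands of CXCR2 and were lower in both treated groups. IL8 (CXCL8), at 81.9 CPM in control, had a ratio of 1.01 (0.965 to 1.05) with BenSer and 0.928 (0.887 to 0.970) with GPNA. CXCL3 was at 0.965 (0.751 to 1.24) and 0.927 (0.710 to 1.21), intervals that do not separate it from control.

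**Figure D4:**
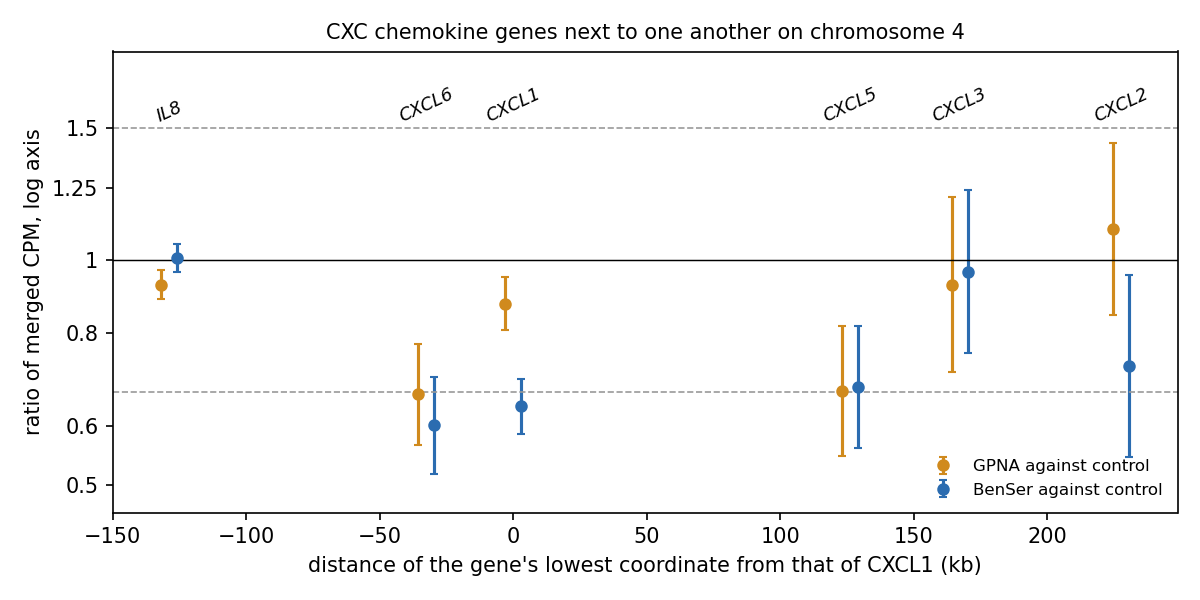
Ratio of merged CPM to control (y axis, log scale) for 6 CXC chemokine genes by distance of the gene's lowest coordinate from that of CXCL1 (x axis, kb), with GPNA in orange and BenSer in blue, offset sideways for clarity. Bars are exact 95% counting intervals and dashed lines 1.5-fold. CXCL6, CXCL1, CXCL5 and CXCL2 lie below 1 with BenSer, while IL8 and CXCL3 lie at about 1.

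The libraries of the 2 inhibitors, which were used at different concentrations, are set side by side without a comparison of the compounds. Between BenSer and GPNA libraries 0 of 10 genes were 1.5-fold different on the log2(CPM + 1) scale, where 1.87% of the 19056 genes tested were. The CPM ratio of BenSer to GPNA was 1.41 for IL1B (1.31 to 1.51), 1.29 for NFKBIA (1.22 to 1.36) and 1.22 for NFKB2 (1.11 to 1.33). It was 0.729 for CXCL1 (0.67 to 0.794) and 0.657 for CXCL2 (0.503 to 0.856). TNFAIP3, lower than control in both, had a ratio of 1.03 (0.936 to 1.13). In total 5 intervals lay above 1 and 2 below, where 21.2% and 20.7% of all genes tested did so (41.9% in all). These shares, too, are not matched for reads.

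Levels were compared between genes as CPM per kb of the canonical transcript. In control NFKBIA was highest at 27.9 CPM per kb (26.7 to 29.2), followed by CXCL1 at 21.7 (20.4 to 22.9) and IL1B at 17.6 (16.6 to 18.6). NFKB2 (5.89), NFKB1 (5.28), IL6 (4.50) and TNFAIP3 (4.28) came next. Among these the counting intervals of NFKB2 (5.49 to 6.30) and NFKB1 (4.96 to 5.62) overlapped, as did those of NFKB1 and IL6 (3.95 to 5.12) and of IL6 and TNFAIP3 (4.01 to 4.56). CXCL2 (2.05), RELB (1.23) and IL1A (0.321) were lowest. The order was the same in GPNA. In BenSer IL1B (22.6; 21.7 to 23.6) stood above CXCL1 (13.8; 13 to 14.7), the reverse of control, and RELB (1.61; 1.41 to 1.83) stood above CXCL2 (1.48; 1.21 to 1.79) with overlapping intervals. The order depended on the length used. With the union of annotated exons, an alternative chosen after the data were seen, CXCL1 came before NFKBIA in control (18.7 and 12.8 CPM per kb), and NFKB1 (1.37) and IL6 (1.17) came after CXCL2 (1.64). By that length CXCL1 (11.9) also stayed above IL1B (11.3) in BenSer.

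The rest of the pathway was described with lists of 142 genes, of which 124 had a row in the tables. Genes of the lists were called past 1.5-fold on the log2(CPM + 1) scale, so a CPM ratio can pass 1.5-fold without a call. With GPNA 1 of the 123 tested was at least 1.5-fold higher and 0 were lower (0.813% and 0%), beside 0.34% and 0.0637% of all genes. With BenSer 9 of 124 were higher and 5 lower (7.26% and 4.03%), beside 1.96% and 1.58% of all genes. The shares of all genes include low genes, whose changes this scale understates. With a filter of 20 reads, 670 of 14460 genes passed 1.5-fold with BenSer, beside 671 of 18976 with the filter used. The lists were also chosen with earlier results of these data known, so these shares are not read as a result about the pathway. The median difference in log2(CPM + 1) over the lists was -0.04 with GPNA and 0.05 with BenSer.

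No gene among the other subunits and the kinases was past 1.5-fold on the log2(CPM + 1) scale. Of the other subunits, RELA, the main activating subunit, had 50.3 and 49.4 CPM in control, 47.8 and 46.4 in GPNA and 49.4 and 52.5 in BenSer, and REL had a ratio of 1.09 (0.925 to 1.29) with GPNA and 0.967 (0.821 to 1.14) with BenSer. Of the 12 IKK and upstream kinases 0 passed 1.5-fold with either inhibitor. In that list TAB2, an adaptor of the kinase TAK1, had a ratio of 0.874 (0.817 to 0.934) with GPNA and 1.03 (0.972 to 1.10) with BenSer, and MAP3K7, which encodes TAK1, 0.993 (0.929 to 1.06) and 1.13 (1.06 to 1.2). Among 15 other IkB proteins and brakes, PDLIM2, a ubiquitin ligase that targets RELA, was lower with BenSer at a ratio of 0.595 (0.50 to 0.706), and 0 passed with GPNA.

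On the receptor side, single genes stood out with BenSer. IRAK2, a kinase of the interleukin-1 and Toll-like receptor path, was the 1 gene of 21 adaptors and ubiquitin ligases past 1.5-fold, with 8.09 and 7.5 CPM in control, 10.5 and 9.19 in GPNA and 14.1 and 12.9 in BenSer. Its ratio was 1.73 (1.53 to 1.96) with BenSer. Among 22 receptors, TLR3, a sensor of double-stranded RNA, was higher with BenSer at a ratio of 3.25 (1.8 to 6.28), from a control level of 0.258 and 0.347 CPM. IL1RL1, the receptor of interleukin-33, was lower at 0.538 (0.425 to 0.680).

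Of 17 other ligands and cytokines 3 were higher and 1 lower with BenSer. TNFSF10, which encodes the death ligand TRAIL, had a ratio of 3.28 (2.29 to 4.82) with BenSer and of 2.39 (1.62 to 3.59) with GPNA. It was the single listed gene past 1.5-fold with GPNA on the log2(CPM + 1) scale. Both treated groups lay above control, at 2.64 and 2.6 CPM in BenSer and 1.90 and 1.93 in GPNA beside 0.990 and 0.607. CSF1, a macrophage growth factor, had a ratio of 2.04 (1.66 to 2.52) and TNFSF15 one of 1.82 (1.67 to 1.99) with BenSer, whereas TNFSF15 was at 0.834 (0.747 to 0.931) with GPNA. IL24, a cytokine of the interleukin-10 family, was at 0.366 (0.238 to 0.554) with BenSer. LTB was not called with GPNA (-0.41 in log2(CPM + 1)), at a CPM ratio of 0.580 (0.386 to 0.863), and was at 0.625 (0.432 to 0.902) with BenSer. IL23A went the other way and was not called either (0.50 with GPNA). Its CPM ratio was 1.51 (1.26 to 1.81) with GPNA and 1.40 (1.18 to 1.67) with BenSer. Of the 9 other chemokines, CXCL6 alone passed 1.5-fold on the log2(CPM + 1) scale, and only with BenSer. Its ratios are given above.

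Of 26 other NF-kB target genes, 4 were at least 1.5-fold higher with BenSer and 0 passed with GPNA. TAP1 and PSMB9, which serve antigen presentation, had ratios of 2.14 (1.92 to 2.40) and 2.09 (1.64 to 2.69). IRF1, a transcription factor, was at 1.68 (1.51 to 1.85) and SQSTM1, an autophagy receptor also controlled by NRF2, at 1.58 (1.52 to 1.64). TAP1, PSMB9 and IRF1 are also known as interferon-induced genes.

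**Figure D5:**
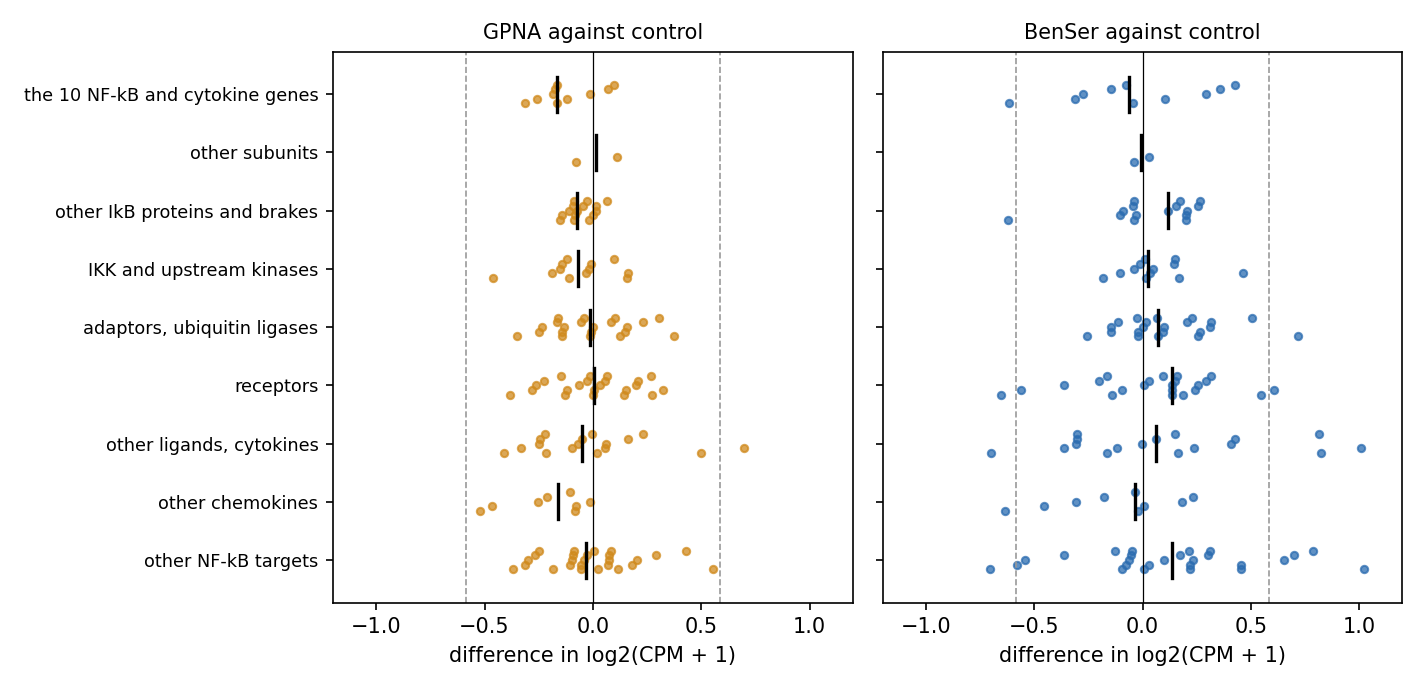
Difference in log2(CPM + 1) against control (x axis) for the 10 NF-kB and cytokine genes and 8 further pathway lists, with GPNA at left and BenSer at right. Points are genes, spread vertically for clarity, black bars list medians and dashed lines 1.5-fold. With GPNA 1 point lies beyond the dashed lines, and with BenSer points lie beyond them on both sides, including CXCL1 in the top row.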

How the data were processed

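Stranded total RNA libraries of PC-3 cells were sequenced as paired-end reads by the authors, who trimmed them, used TopHat2 for mapping to hg19/GRCh37.p13, and counted them per gene (the submitters' processing notes also name Bowtie2, HTSeq version 0.6.2p2 and DESeq). The value columns the authors deposited are named as counts but hold CPM, the reads of a gene over the library total. Multiplied by that total, 100% of values came to whole reads within 0.01 reads, which gave the reads and totals back. Of 16 value columns, 8 matched no sample label and were not used. The tables also hold the authors' log fold change, mean log CPM, p-value and false discovery rate, which were not used.

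Columns 1 and 2 of a group were compared by chi-square for genes with 20 reads or more. They were counted as 1 sample. Mean CPM was compared as a difference in log2(CPM + 1) for genes averaging 5 reads or more in either group, called at 1.5-fold; this scale understates changes of low genes. Ratios of merged CPM have exact Clopper-Pearson 95% intervals (scipy 1.17.1). edgeR 4.0.16, DESeq2 1.42.0 and limma 3.58.1 (R 4.3.3), with the columns entered as samples at an adjusted p under 0.05, compare libraries and not treatments and served as alternatives. Scripts were tested on simulated data. Transcript lengths and positions are of GENCODE v44 lifted to GRCh37. The 10 genes and the lists were chosen with earlier results of these data known. The text names the 10 genes, and of each list the genes at least 1.5-fold different from control or, if there were none, the 2 with the highest control CPM. A listed gene that met this rule is not reported here. The chemokine neighbours and the markers were named in addition. LTB, IL23A and MAP3K8 were named after their values were seen.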

Additional observations from a re-analysis of the deposited data

How the results depend on the processing

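With the libraries of a group counted as 1 sample, no result here has a replicate check. The other column of a group was taken to test read sampling alone. The paper's methods describe exact tests over more replicates per group than the libraries used here. Whether both libraries of a group came from separate cultures was not settled here. The 8 value columns without a sample label were set aside, and whether they hold further replicates was not settled either. Over the alternatives, 357 of 357 values for single genes moved by less than the width of the gene's counting interval on the log2 scale. Direction was not always kept. RELB with GPNA moved from -0.013 to 0.138 without control replicate 2, and NFKB1 with BenSer from -0.043 to 0.002 with TMM factors. The medians over the 10 genes moved from -0.17 to between -0.18 and -0.13 with GPNA. With BenSer they moved from -0.06 to between -0.11 and -0.02. Other scalings moved the median of all genes by at most 0.03.

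Counts past 1.5-fold depended on the settings. Over all genes, GPNA against control gave 76, and 1531 with a pseudocount of 0.1, 232 with 0.5, 2230 with none (an alternative chosen after seeing the data), 9 at 2-fold and 1054 at 5/4-fold. BenSer against control gave 671, and in the same order 2602, 1012, 3336, 92 and 3357. BenSer against GPNA gave 356, and 2173, 655, 2991, 30 and 2657. TMM and DESeq2 factors moved the BenSer split of higher and lower genes from 371 and 300 to 432 and 214 and to 434 and 212. Leaving out 1 column gave 99 to 113, 696 to 749 and 390 to 413.

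Of the 10 genes, BenSer against control gave 1 (CXCL1), and 0 with TMM factors, 0 with DESeq2 size factors, 0 at 2-fold, 3 at 5/4-fold and 0 to 1 without 1 column (0 without control replicate 2). BenSer against GPNA gave 0, and 4 at 5/4-fold and 1 with no pseudocount.

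Tests that take columns as samples compare libraries. In edgeR, DESeq2 and limma they called 2853, 996 and 3363 genes for GPNA against control, of which 1, 0 and 3 were among the 10. They called 6803, 3955 and 6826 for BenSer against control (5, 3 and 4) and 6436, 3519 and 6429 for BenSer against GPNA (6, 4 and 6). The column numbers do not pair the samples: deviations of columns with the same number correlated at 0.017 to 0.023 across genes. With the replicate number as a block, edgeR called 2212, 6189 and 6326 genes, of which 1, 4 and 6 were among the 10.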

Other observations

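CSF3, which encodes the granulocyte growth factor G-CSF, was at 0 reads in both BenSer libraries, beside 11 reads in control and 12 in GPNA. The exact 95% interval of the CPM ratio ran from 0 to 0.288 against control and from 0 to 0.288 against GPNA. With the pseudocount of 1 CPM the difference from control was -0.31 in log2(CPM + 1), so CSF3 was not among the genes past 1.5-fold. BCL2A1, an anti-apoptotic NF-kB target, and IL6R, the interleukin-6 receptor, were just inside the same limit with BenSer (-0.58 and -0.56), at CPM ratios of 0.580 (0.461 to 0.730) and 0.654 (0.583 to 0.733). TLR6 and MAP3K8, a receptor for bacterial lipopeptides and a kinase of the pathway, were inside it at 0.54 and 0.46, with ratios of 1.62 (1.31 to 2.0) and 1.63 (1.22 to 2.19). These 5 genes were chosen after their values were seen.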
